A study of Homo sapiens with 20 samples.

Results

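The 35 genes described here encode enzymes and subunits of nucleotide and one-carbon synthesis, taken by symbol from a fixed list out of the 19676 protein-coding genes of GENCODE release 44. They comprise 16 purine genes (4 of phosphoribosyl pyrophosphate supply, 10 of de novo synthesis, 2 of salvage), 14 pyrimidine genes (5 of de novo synthesis, 2 of salvage or nucleotide phosphorylation, 7 of deoxynucleotide and thymidylate supply) and 5 folate one-carbon genes. The rule of the choice used no measured value, but the genes were chosen with earlier results of these data known. The samples were PC-3 cells, an established epithelial prostate cancer line, either wild type (WT) or lacking the kinase gene SLK (SLK-KO, a line that the labels call PSD10), with no other treatment named. Chromatin was immunoprecipitated with an antibody against c-Myc (MYC) or against RNA polymerase II (POL2), with 3 libraries per antibody and genotype described as biological replicates. The labels do not say whether the SLK-KO line is 1 clone or several, so the knockout cannot be told apart from other differences between these lines. Each library was represented by its list of summits, the 1-bp centres of the peaks called in it, each with a score from the peak caller.

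Purine rings are built stepwise on a sugar phosphate, whereas the pyrimidine ring is assembled first and joined to the sugar phosphate later, and salvage enzymes rebuild both kinds of nucleotide from free bases or nucleosides. Folate carries the one-carbon units that purine synthesis and the conversion of dUMP to dTMP consume, and in proliferating cells much of that carbon is released by mitochondrial enzymes. MYC pairs with MAX and binds DNA with a preference for the E-box CACGTG, and genes of nucleotide synthesis are among its known targets.

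The sequences below are shown because they held MYC summits of these genes. All are GRCh38 sequence on the coding strand of the gene, 5′ to 3′, and capitals mark the palindromic E-box CACGTG. The PPAT and PAICS summits of all 6 libraries lay over a stretch of PAICS intron sequence that held 2 E-boxes (chr4:56436333-56436476, plus strand).

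PAICS: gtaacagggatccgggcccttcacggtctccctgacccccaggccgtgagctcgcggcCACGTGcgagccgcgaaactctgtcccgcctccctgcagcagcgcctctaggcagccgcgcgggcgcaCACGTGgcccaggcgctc

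The other E-boxes within 100 bp of a summit were at PFAS (chr17:8249325-8249354, plus), ATIC (chr2:215312001-215312030 and chr2:215312076-215312105, plus), DTYMK (chr2:241687417-241687446, minus), SHMT2 (chr12:57230013-57230063, plus), MTHFD1 (chr14:64388326-64388355, plus) and MTHFD1L (chr6:150866320-150866349, plus). Outside the 6 bases, these windows differed from one another.

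PFAS: gagtgcatcttcCACGTGagtatagttacc

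ATIC, upstream: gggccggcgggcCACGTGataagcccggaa

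ATIC, downstream: ctcctacctgcgCACGTGgtgccgccgctg

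DTYMK: tcctacaattgcCACGTGgccagcgtctac

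SHMT2: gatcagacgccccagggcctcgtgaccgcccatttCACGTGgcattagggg

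MTHFD1: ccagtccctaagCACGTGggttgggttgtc

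MTHFD1L: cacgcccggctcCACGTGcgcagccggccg

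UCK2 (chr1:165827933-165828045, plus) and MTHFD2 (chr2:74198553-74198609, plus) had summits without an E-box. Capitals mark CGCGTG, which is CACGCG read on the opposite strand, an E-box with 1 base changed.

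UCK2: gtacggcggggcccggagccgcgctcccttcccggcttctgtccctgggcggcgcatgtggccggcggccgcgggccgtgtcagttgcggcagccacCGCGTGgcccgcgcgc

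MTHFD2: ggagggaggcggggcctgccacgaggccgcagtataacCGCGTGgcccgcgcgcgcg

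Both stretches contain the same run of 18 bases, acCGCGTGgcccgcgcgc (chr1:165828028-165828045 and chr2:74198589-74198606). These were the 2 occurrences of the run, on either strand, in the GRCh38 chromosomes 1 to 22, X and Y. GART (chr21:33541934-33542064, minus) had summits in 5 libraries over an intron stretch that held neither word.

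GART: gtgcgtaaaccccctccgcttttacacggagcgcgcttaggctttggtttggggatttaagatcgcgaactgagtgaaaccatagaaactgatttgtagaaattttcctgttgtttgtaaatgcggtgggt

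The WT MYC lists held 201 to 365 summits and the SLK-KO MYC lists 988 to 1420, and the POL2 lists 5047 to 17126 and 15436 to 19017. A longer list gives every gene more chances, and sequencing depth is unknown, so counts are printed beside those over the 10428 coding genes with POL2 in 1 or more libraries at a transcription start site (TSS; at means 1 kb or less away), and beside lists cut to the length of the shortest. SLK itself had a POL2 summit at a TSS in 2 WT and 3 SLK-KO libraries, which does not check the loss of its product. Of the line's markers, KRT8, KRT18, KRT19, VIM and CD44 had a POL2 summit in all 6 libraries, EPCAM in 1 WT and 3 SLK-KO libraries and CDH1 in 1 WT library. The defining markers of other cell types PTPRC, CD3E and DCN had none, PECAM1 had one in 1 WT library and COL1A1 in 2 libraries of each genotype.

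MYC summits lay at the starts of genes of every branch, and in every library at the start shared by PPAT and PAICS of de novo purine synthesis. For 19 of the 35 genes (54.3%), at least 1 of the 6 libraries placed a MYC summit 1 kb or less from a coding TSS, against 17.3% of the 10428 genes. PPAT and PAICS had one in all 6 libraries (5.71% of the genes, against 0.911%), and they share a promoter region and the same summits. Per library the number was 10, 2 and 5 of 35 in WT and 12, 13 and 7 in SLK-KO. The mean shares were 16.2% ± 11.5 of the genes for WT and 30.5% ± 9.18 for the knockout (SD, n = 3), with overlapping ranges. Over the 10428 genes the means were 2.57% ± 0.716 and 9.92% ± 1.48. With each list cut to its 201 best-scored summits, the genes with a summit numbered 3.67 ± 1.53 in WT and 4.33 ± 2.08 in SLK-KO (10.5% and 12.4%), beside 1.92% and 1.83% of all genes.

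**Figure D1:**
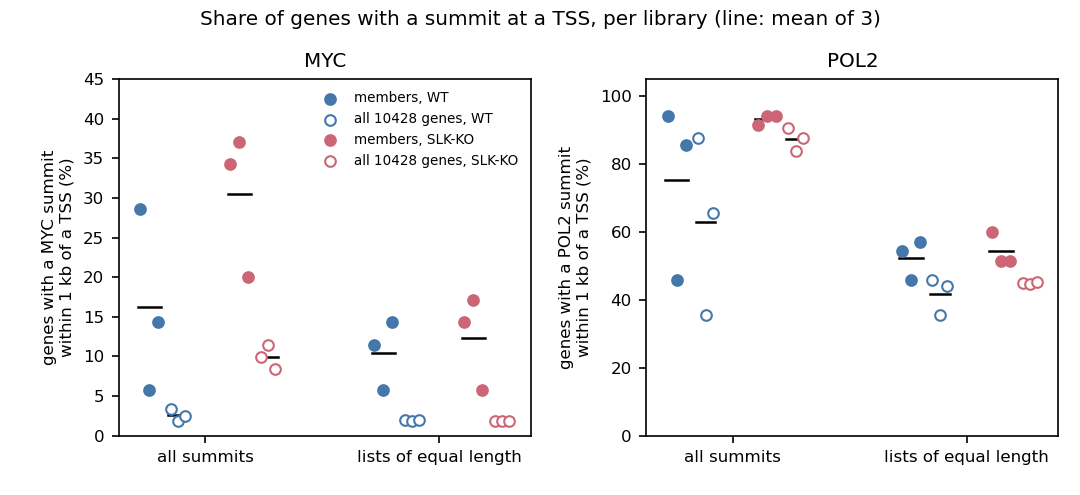
Percent of genes with a MYC (left) or POL2 (right) summit 1 kb or less from a TSS, 1 point per library, with all summits and with lists cut to equal length. Filled points are the 35 genes, open points the 10428 genes, and black lines are means of 3 libraries. For MYC the filled points lie above the open ones of the same library in all 6 libraries, and the SLK-KO mean of 30.5% falls to 12.4% in lists of equal length.

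None of the 35 was listed for MYC in all 3 SLK-KO libraries and 0 WT libraries (1.58% of all genes were) or in 3 WT and 0 SLK-KO libraries (0% of all genes). More SLK-KO than WT libraries had a summit for 13 genes (37.1%, against 15.2% of all genes) and more WT than SLK-KO libraries for 2 (5.71%, against 0.537%). In lists of equal length the genes with a summit in at least 1 library were PPAT, GART, PAICS, APRT, CTPS1, UCK2 and MTHFD2, 7 genes or 20%, against 4.37% of all genes. Of these, APRT and CTPS1 had more SLK-KO than WT libraries and MTHFD2 the reverse.

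By branch, MYC summits were found at 22.9% ± 13 of the 16 purine genes per WT library and 35.4% ± 7.22 per SLK-KO library (SD, n = 3). The 14 pyrimidine genes had them at 9.52% ± 10.9 and 21.4% ± 7.14, and the 5 folate genes at 13.3% ± 11.5 and 40% ± 40. The ranges over libraries overlapped between genotypes in each of these arms. The mean shares over the 10428 genes were 2.57% ± 0.716 in WT and 9.92% ± 1.48 in SLK-KO. The folate value in SLK-KO came from 2, 4 and 0 of the 5 genes in the 3 libraries, so its mean describes none of them. In lists of equal length the purine arm had 2.33 ± 0.577 genes in WT and 3 ± 1 in SLK-KO, the pyrimidine arm 0.667 ± 0.577 and 1 ± 1, and the folate arm 0.667 ± 0.577 and 0.333 ± 0.577. As shares these were 14.6% and 18.8%, 4.76% and 7.14%, and 13.3% and 6.67%, beside 1.92% and 1.83% of the 10428 genes.

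**Figure D2:**
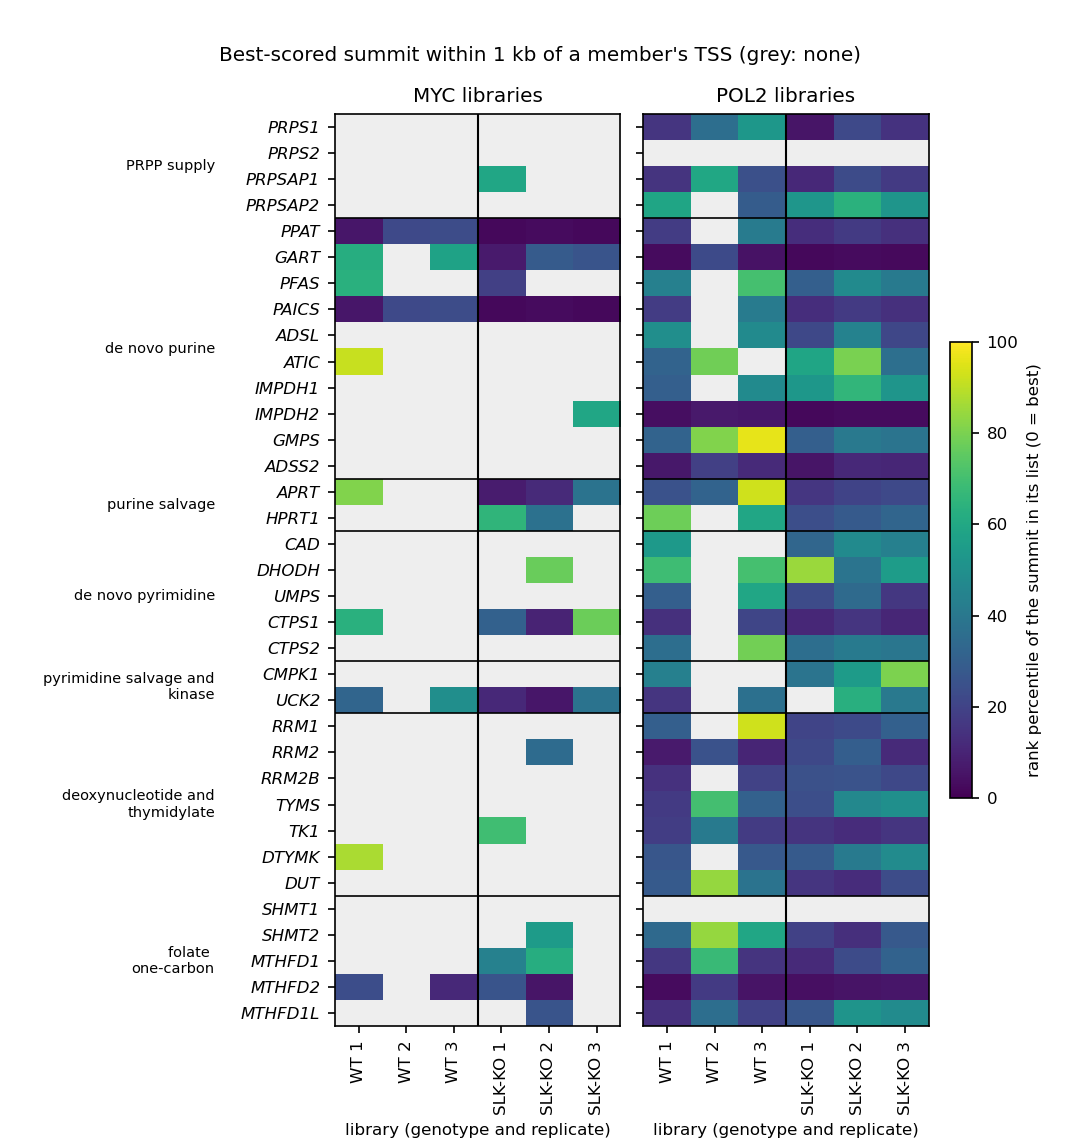
Best-scored summit within 1 kb of a TSS for each of the 35 genes (rows, grouped by branch) in each of the 6 MYC and 6 POL2 libraries (columns). Colour is the rank of the summit in its list as a percentile, 0 being the best score, and grey means that no summit was listed. PPAT and PAICS are filled in all 6 MYC libraries, while PRPS2 and SHMT1 are grey in all 12.

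Of the 10 de novo purine genes, 6 had a MYC summit in some library, with 5, 2 and 3 genes in the WT libraries and 4, 3 and 4 in the SLK-KO libraries. PPAT (ENSG00000128059.8, chr4:56393362-56435615, minus strand) catalyses the committed first step, and PAICS (ENSG00000128050.9, chr4:56435741-56464578, plus strand) encodes a bifunctional enzyme of later steps. The summit of this divergent pair ranked 22 of 365, 44 of 201 and 62 of 267 in WT and 25 of 1218, 42 of 1420 and 23 of 988 in SLK-KO. As percentiles of the list these ranks were 6.03 to 23.2 in WT and 2.05 to 2.96 in SLK-KO. Ranks in lists of different length do not measure a change, because the longer lists extend further down. The summits lay 93 to 196 bp downstream of a PAICS TSS and 738 to 841 bp upstream of that of PPAT, in intron sequence of PAICS. The 2 E-boxes begin 131 and 199 bp downstream of the canonical PAICS TSS, and the nearest summits were 26 and 6 bp from them.

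GART encodes the trifunctional enzyme of 3 steps of the pathway (ENSG00000159131.17, chr21:33503931-33543491, minus strand). Its MYC summit was listed in 5 libraries, at rank 227 of 365 and 154 of 267 in WT replicates 1 and 3 and at 88 of 1218, 406 of 1420 and 255 of 988 in SLK-KO. All 5 lay 57 to 160 bp downstream of a coding TSS in an intron of the canonical transcript, and WT replicate 2 had none. PFAS, which forms formylglycinamidine ribonucleotide, had a summit in the first replicate of each genotype, at rank 231 of 365 and 232 of 1218. The PFAS summits were 25 and 109 bp downstream of a TSS, and the E-box was within 100 bp of the first of them alone. ATIC, the enzyme of the closing steps to IMP, had a low-ranked summit in WT replicate 1 (334 of 365), 45 bp upstream of its TSS and 2 bp from an E-box. IMPDH2, an IMP dehydrogenase on the way to GMP, had one in SLK-KO replicate 3 (585 of 988). ADSL, IMPDH1, GMPS and ADSS2, which serve the branch from IMP to AMP and GMP or a step before it, had no MYC summit in any library.

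Among the 4 genes of phosphoribosyl pyrophosphate supply, MYC was listed at 1 gene in 1 library. PRPSAP1, which encodes a synthetase-associated protein, had a summit at rank 720 of 1218 in SLK-KO replicate 1. PRPS1 and PRPS2, the synthetases, and PRPSAP2 had none. Both salvage genes had MYC in more SLK-KO than WT libraries, and of these APRT alone was listed in lists of equal length. APRT, which salvages adenine (ENSG00000198931.11, chr16:88809339-88811937, minus strand), ranked 296 of 365 in WT replicate 1 and 93 of 1218, 170 of 1420 and 376 of 988 in SLK-KO. Its summits were 7 to 86 bp downstream of a TSS, in the first coding exon in 3 libraries and in an intron in the fourth. HPRT1, which salvages hypoxanthine and guanine, was listed at rank 796 of 1218 and 528 of 1420 in SLK-KO replicates 1 and 2 and in no WT library.

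In the pyrimidine arm, CTPS1 and UCK2 had MYC summits in 4 and 5 libraries, and no other gene of the arm had one in more than 1. CTPS1, a CTP synthase (ENSG00000171793.17, chr1:40979300-41012565, plus strand), ranked 231 of 365 in WT replicate 1 and 380 of 1218, 142 of 1420 and 765 of 988 in SLK-KO. The 4 summits spread from 113 to 602 bp downstream of its canonical TSS. UCK2, a uridine and cytidine kinase of salvage (ENSG00000143179.16, chr1:165827614-165911618, plus strand), ranked 119 of 365 and 132 of 267 in WT replicates 1 and 3 and 142 of 1218, 86 of 1420 and 376 of 988 in SLK-KO. All 5 summits were nearer to an alternative UCK2 start (129 to 220 bp) than to that of TMCO1 (179 to 270 bp), whose TSS is 141 bp from the canonical one of UCK2. From that canonical UCK2 start they were 320 to 411 bp away, further than from TMCO1 in each of these libraries. DHODH, the mitochondrial enzyme that makes orotate, had 1 summit, at rank 1095 of 1420 in SLK-KO replicate 2. CAD, the multifunctional enzyme that starts the pathway, UMPS, CTPS2 and CMPK1 had no MYC summit. The nearest MYC summit to a CAD TSS in any library was 115021 bp away.

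Of the 7 deoxynucleotide and thymidylate genes, 3 had a MYC summit, each in a single library. RRM2, the ribonucleotide reductase subunit that cycles with S phase, had one at rank 498 of 1420 in SLK-KO replicate 2, at an upstream coding TSS, at position -2024 bp from the canonical one. TK1, which phosphorylates thymidine, had one at rank 847 of 1218 in SLK-KO replicate 1, which was 107 bp from a TK1 TSS and 18 bp from that of AFMID. The summit of DTYMK, the thymidylate kinase, ranked 319 of 365 in WT replicate 1 and was also nearer to another gene, 367 bp from ING5 against 637 bp. RRM1, RRM2B, TYMS and DUT had none. The summits of TK1 and DTYMK were thus nearer to a neighbour's start, whereas that of RRM2 was 17 bp from one of its own.

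Of the folate genes, MTHFD2 had MYC summits in libraries of both genotypes. MTHFD1, SHMT2 and MTHFD1L had them in SLK-KO libraries and in 0 WT libraries, as 12.6% of all genes did, and none of these 3 was listed in lists of equal length. MTHFD2, a mitochondrial dehydrogenase and cyclohydrolase (ENSG00000065911.13, chr2:74186172-74217565, plus strand), ranked 86 of 365 and 31 of 267 in WT replicates 1 and 3 and 317 of 1218 and 79 of 1420 in SLK-KO replicates 1 and 2. These summits lay from 42 bp upstream to 11 bp downstream of its canonical TSS. MTHFD1, the cytosolic trifunctional enzyme, was listed at rank 537 of 1218 and 884 of 1420 in SLK-KO replicates 1 and 2, 6 and 8 bp from an E-box. SHMT2, the mitochondrial serine hydroxymethyltransferase, and MTHFD1L, the mitochondrial formate-releasing enzyme, had 1 summit each in SLK-KO replicate 2, at ranks 779 and 369 of 1420. SHMT1, the cytosolic hydroxymethyltransferase, had none. No folate gene was listed in SLK-KO replicate 3 or WT replicate 2.

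An E-box CACGTG lay within 100 bp of the best-scored MYC summit in at least 1 library for 8 of the 19 genes with MYC, namely PPAT, PAICS, PFAS, ATIC, DTYMK, SHMT2, MTHFD1 and MTHFD1L. The 11 others included GART, UCK2, CTPS1, APRT and MTHFD2, each listed in 4 or 5 libraries. By library, 5 of 10, 2 of 2 and 2 of 5 genes had the E-box in WT and 3 of 12, 5 of 13 and 2 of 7 in SLK-KO. Over all coding genes with a MYC summit the share was 38.6%, 45.4% and 43.6% in WT and 29.8%, 29.2% and 29.5% in SLK-KO. The shares of the nucleotide genes therefore lay on both sides of the background, and PPAT and PAICS entered each count with the same 2 E-boxes. At POL2 summits of all genes CACGTG was within 100 bp in 4.1% ± 0.53 of cases in WT and 4.48% ± 0.212 in SLK-KO.

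Among the 11 genes without an E-box, CACGCG, searched on both strands, was within 100 bp of a MYC summit of UCK2, MTHFD2, APRT, HPRT1, PRPSAP1, IMPDH2 and RRM2. It was within 100 bp of all 4 MTHFD2 summits and of 4 of the 5 UCK2 summits, in the run of 18 bases printed above. Counting all 19 genes with MYC, also those with an E-box, 14 of 32 gene and library pairs had it in SLK-KO (43.8%) and 6 of 17 in WT (35.3%). Over all coding genes with MYC the shares were 31.9% ± 1.42 in SLK-KO and 34.3% ± 3.81 in WT, and at POL2 summits 12.1% ± 0.431 and 11.6% ± 0.185. None of the summits of GART, CTPS1, DHODH or TK1 had CACGTG or CACGCG within 100 bp. In the RefSeq promoter windows (GRCh38, 250 bases before to 50 after the start, 31 of the 35 genes matched), CACGTG was in 5 genes (16.1%), against 8.88% of 15842 coding promoters. Those 5, PPAT, ATIC, DHODH, MTHFD1 and MTHFD1L, each had a MYC summit in some library, as did 12 of the 26 without it. The PPAT summits, however, lay 738 to 841 bp upstream of its coding TSS, and the DHODH summit had no CACGTG within 100 bp. A matching word is a description of the window and does not show a bound site.

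**Figure D3:**
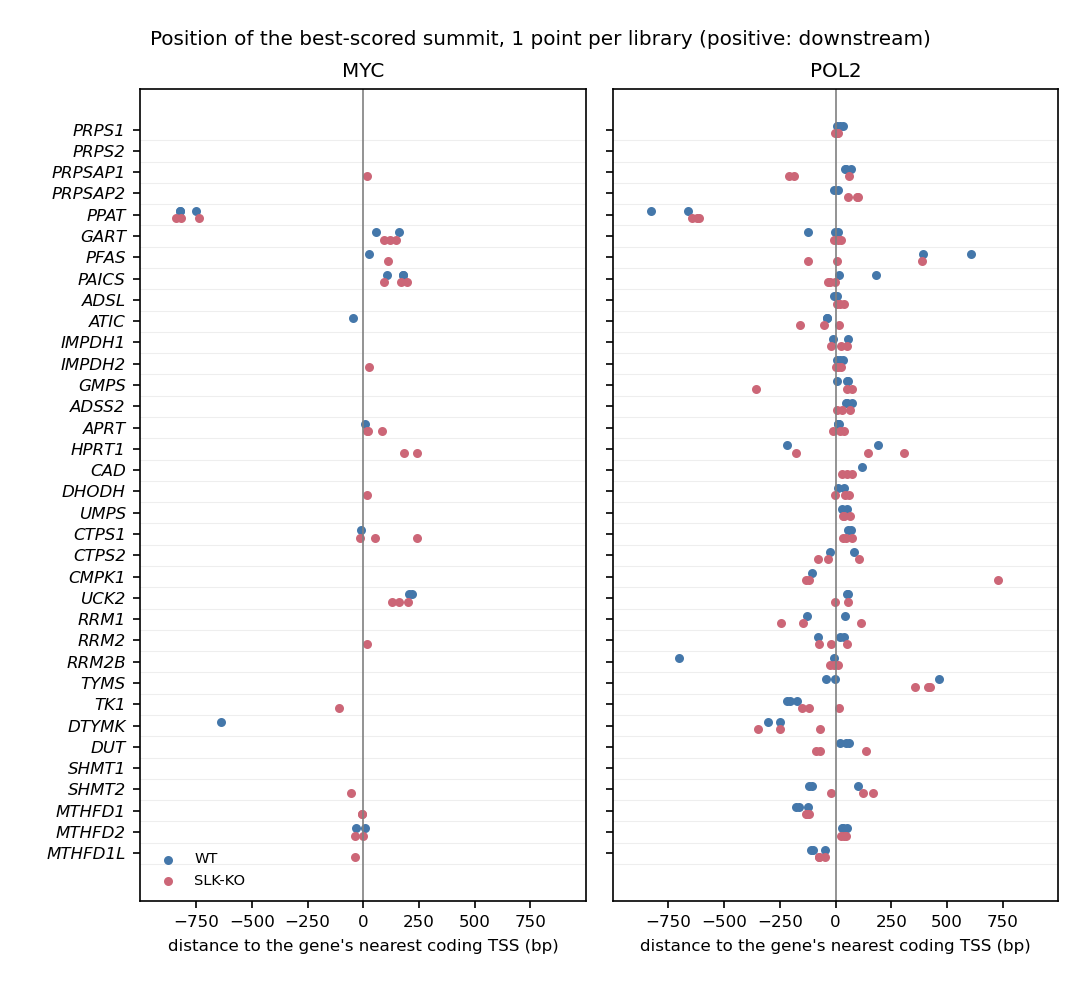
Distance in bp from the best-scored summit to the nearest coding TSS of the gene, 1 point per library, for MYC (left) and POL2 (right); positive values are downstream. Most points lie within 250 bp of 0, and the MYC points of PPAT between -738 and -841 are the summits that are 93 to 196 bp downstream of PAICS.

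The median absolute distance to the nearest coding TSS was 107 bp over 49 MYC gene and library pairs (127 bp over all genes) and 52 bp over 177 POL2 pairs (65 bp over all genes). Of the 49 MYC pairs, 33 had a POL2 summit of the same-numbered library within 250 bp (67.3%) and 46 within 1 kb (93.9%). Over the 3966 such pairs of all coding genes the shares were 56.2% and 91.8%. The 3 others were PPAT and PAICS in WT replicate 2 and UCK2 in SLK-KO replicate 1. At GART the nearest POL2 summit was 775 to 855 bp from the MYC summit. The POL2 summits counted for GART were 652 to 869 bp upstream of its canonical TSS, at upstream coding starts of the gene, and 52 to 269 bp from the TSS of SON, a divergently transcribed neighbour.

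In 1 or more libraries 33 of 35 genes (94.3%) had POL2 at a TSS, against 53% of all coding genes, and in all 6 libraries 15 did (42.9%, against 33.4% of the 10428 genes). The number per library was 33, 16 and 30 in WT and 32, 33 and 33 in SLK-KO, so that WT replicate 2, the shortest POL2 list, stood apart. Of the 10428 genes, 87.8%, 35.5% and 65.6% were listed in these WT libraries and 90.7%, 83.7% and 87.8% in the SLK-KO libraries. The mean share of the 35 genes in SLK-KO, 93.3% ± 1.65, was near that of all genes, 87.4% ± 3.52. With all summits, no gene was listed in 3 SLK-KO and 0 WT libraries, against 2.85% of the 10428 genes. In lists of equal length the numbers were 18.3 ± 2.08 and 19 ± 1.73 (SD, n = 3), a difference smaller than the spread between libraries. These were 52.4% and 54.3% of the 35 genes, beside 41.8% and 45% of the 10428. In all 6 of the cut lists 8 genes had POL2 (22.9%, against 24.2% of the 10428). Cut so, RRM1 was listed in 3 SLK-KO and 0 WT libraries (2.86%, against 1.85% of the 10428 genes). MTHFD1L was listed in 3 WT and 0 SLK-KO libraries (2.86%, against 0.834%). At least 1 WT and 0 SLK-KO libraries listed 7 genes (20%, against 8.49%), and the reverse held for 3 (8.57%, against 8.25%). PRPS2 and SHMT1 had no POL2 summit within 1 kb in any library. The nearest POL2 summit to a start of PRPS2 was 175788 bp away and that to a start of SHMT1 179411 bp, and the nearest MYC summits were 1230571 and 526865 bp away. Whether reads could be mapped there was not tested. The related PRPS1 and SHMT2 had POL2 in all 6 libraries. TK1 also had it in all 6, but 5 of these summits were nearer to the TSS of AFMID.

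In lists cut to 5047 summits, 41.8% ± 5.54 of the 10428 genes had POL2 per WT library and 45% ± 0.306 per SLK-KO library. The 7 deoxynucleotide and thymidylate genes had POL2 at 76.2% ± 16.5 per WT library and 76.2% ± 8.25 per SLK-KO library, and the 5 de novo pyrimidine genes at 13.3% ± 11.5 and 33.3% ± 11.5. De novo purine genes had it at 56.7% ± 11.5 and 56.7% ± 5.77, and the folate genes at 66.7% ± 11.5 and 53.3% ± 11.5. The 4 genes of phosphoribosyl pyrophosphate supply had it at 50% in both genotypes, the 2 purine salvage genes at 33.3% ± 28.9 and 83.3% ± 28.9, and UCK2 with CMPK1 at 33.3% ± 28.9 and 0%. These groups are small, and differences between them were not tested. With all summits, the de novo pyrimidine genes CAD, UMPS, DHODH, CTPS1 and CTPS2 were listed for POL2 as 5, 0 and 4 of 5 in the WT libraries and as 5 of 5 in each SLK-KO library. SLK-KO replicate 1 had no UCK2 POL2 summit, although its MYC summit ranked 142 of 1218.

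To compare genotypes without list length, the best POL2 summit of each gene was ranked among the 3481 genes with one in all 6 libraries, as a percentile with 0 at the top. The 15 genes so ranked had a median difference, SLK-KO minus WT, of -1.58 percentile points, beside 0.153 for all 3481 genes. For 3 of them every SLK-KO library was nearer the top than every WT library (20% of the 15, against 15% of the 3481 genes), and for 3 every one was further down (against 15.1%). Each of these 6 had an exact two-sided permutation p of 0.1, the smallest that 20 relabellings of 3 against 3 libraries allow, and an adjusted p of 0.332 over all 3481 genes. None therefore passed the test, and the counts were close to the background.

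Further down in SLK-KO was MTHFD1L, at percentiles 60.8, 48.9 and 49.3 in WT and 87.9, 97.1 and 96.6 in SLK-KO. Its best summit lay at position -96 bp from the canonical TSS in SLK-KO replicate 3 and at 555 to 809 bp elsewhere. RRM2 stood at 33.8, 34.5 and 27.6 in WT and 80, 83.3 and 49.2 in SLK-KO, and its best summit lay at the upstream start in WT replicate 2 and SLK-KO replicate 1 and at the canonical start in the 4 others. TYMS, which methylates dUMP, stood at 69.2, 81.7 and 69.6 against 83.7, 95.2 and 96.9. The best TYMS summit lay at -1 and 49 bp from the canonical TSS in WT replicates 2 and 3 and at 445 to 552 bp elsewhere. The genotype means of these genes differed by 40.9, 38.9 and 18.4 points, and that of TYMS by 34.5 without WT replicate 2. Nearer the top in SLK-KO was DUT, the dUTPase that supplies dUMP, at 90.5, 92.9 and 79.6 in WT and 66.6, 48.3 and 75.6 in SLK-KO. Its best summit lay at 45 to 87 bp from the canonical TSS in WT and at -199 to -96 bp in SLK-KO. For MTHFD1L, RRM2, TYMS and DUT the ranks thus compare summits at different positions. SHMT2 stood at 95, 92.9 and 93.1 against 76.8, 51.6 and 83.2. The position of its best summit also varied, from 112 to 270 bp downstream of the canonical TSS in WT and from 134 to 434 bp in SLK-KO. GART stood at 13.9, 30.3 and 13.7 against 10.1, 11.8 and 10.9, and its difference of means, -8.4 points, was -1.59 without WT replicate 2. The other differences of means were -24.2 for DUT and -23.1 for SHMT2, the latter -13.8 without SLK-KO replicate 2. The deoxynucleotide and folate branches thus each held genes of both directions.

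**Figure D4:**
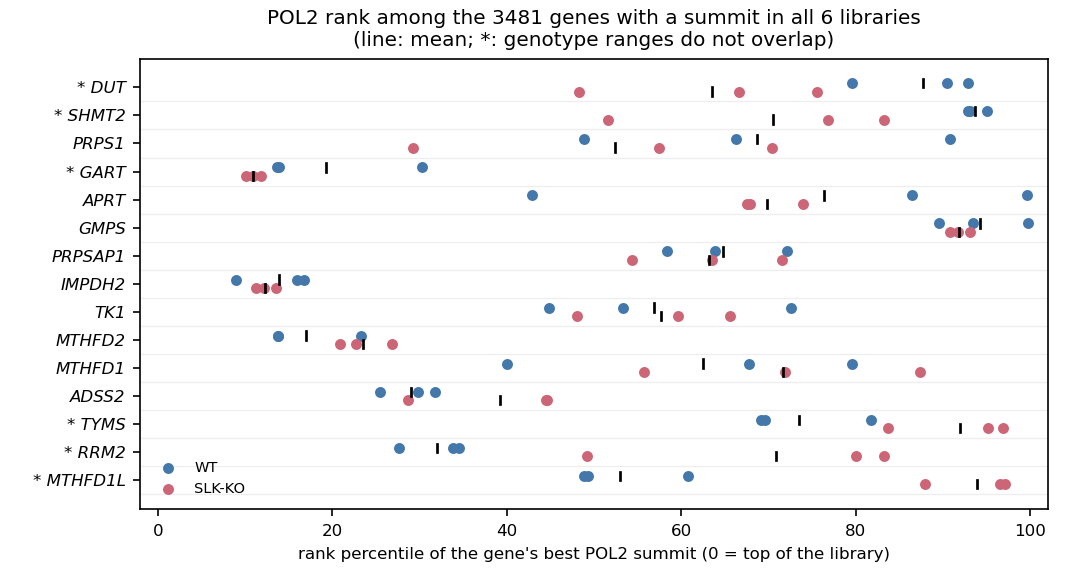
Rank percentile of the best POL2 summit (x axis, 0 is the top of the library) for the 15 genes with a summit in all 6 POL2 libraries, 1 point per library, with black lines at genotype means. Asterisks mark the 6 genes whose WT and SLK-KO ranges do not overlap, from DUT, SHMT2 and GART (SLK-KO nearer the top) to TYMS, RRM2 and MTHFD1L (SLK-KO further down).

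Without WT replicate 2, 29 genes could be ranked in place of 15, among 6339 genes with a summit in the 5 remaining libraries. Nearer the top in SLK-KO were 11 of the 29 (37.9%, against 19.7% of the 6339), and further down were 7 (24.1%, against 20.7%). With 10 relabellings of 2 against 3 libraries the exact permutation p could not fall below 0.1, and the smallest adjusted p over all genes was 0.387. The 11 comprised GART, PPAT, PFAS, PAICS and IMPDH2 of de novo purine synthesis, both salvage genes APRT and HPRT1, UMPS, RRM1, DUT and SHMT2. PPAT and PAICS shared 1 set of POL2 summits (46.7 and 60.1 in WT and 37.9, 39.4 and 34.2 in SLK-KO), so they are not separate observations. IMPDH2 stood at 9.23 and 8.85 against 6.23, 6.71 and 7.43, and APRT at 64 and 98.7 against 45.6, 46.3 and 52.9. IMPDH2 and APRT did not separate when WT replicate 2 was included. Among the 3481 genes that library placed them at 8.91 and 42.9, nearer the top than every SLK-KO library. Of the PFAS summits, 3, including both WT ones, lay 31 to 166 bp from the TSS of CTC1 and over 1 kb upstream of the canonical PFAS start.

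The 7 genes further down in SLK-KO in those 5 libraries were RRM2, RRM2B, TYMS and DTYMK of deoxynucleotide supply, MTHFD2 and MTHFD1L of the folate branch, and IMPDH1. RRM2B, the reductase subunit induced by p53, stood at 38 and 29.6 in WT and 65.5, 56.1 and 51.9 in SLK-KO. DTYMK stood at 66.8 and 41.2 against 73, 79.9 and 89, with 4 of its 5 POL2 summits nearer to ING5. RRM1, the large reductase subunit, went the other way, at 73.3 and 98.3 against 56.3, 50.6 and 68.4. MTHFD2 was near the top throughout, at 7.59 and 7.59 in WT and 11.7, 12.8 and 15.3 in SLK-KO. It did not separate when WT replicate 2 was included. Among the 3481 genes that library placed it at 23.3, beside 20.9, 22.7 and 26.8 in SLK-KO. IMPDH1 stood at 73.3 and 67.6 against 95.7, 95.5 and 91.7, opposite to IMPDH2. Whether the branches differ in direction was not tested.

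**Figure D5:**
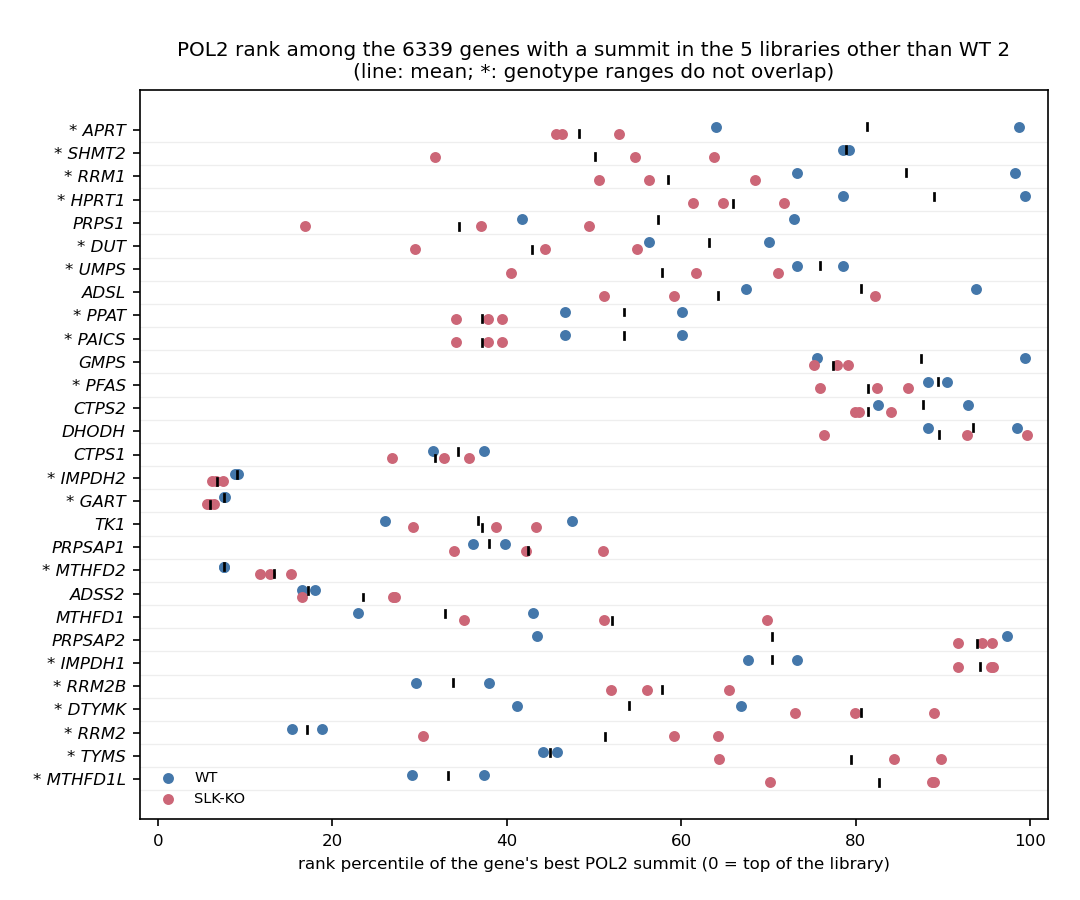
Rank percentile of the best POL2 summit for the 29 genes with a summit in the 5 POL2 libraries other than WT replicate 2, ranked among 6339 genes, with black lines at genotype means. Asterisks mark the 18 genes whose ranges do not overlap, 11 with SLK-KO nearer the top (upper part) and 7 with SLK-KO further down (lower part).

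Another 63 genes of nucleotide and folate metabolism, listed for comparison, had MYC at a TSS in at least 1 library for 15 genes (23.8%, against 17.3% of all genes) and in all 6 for 3 (4.76%, against 0.911%). More SLK-KO than WT libraries were listed for 11 (17.5%, against 15.2%) and more WT for 1 (1.59%, against 0.537%). The 3 were NME1 and NME2, neighbouring nucleoside diphosphate kinase genes, and ADK, the adenosine kinase. SLC25A32, the mitochondrial folate carrier, was listed for MYC in all 3 SLK-KO libraries and 0 WT libraries. It was 1 of the 63 (1.59%), near the share of all genes (1.58%). POL2 was listed at a TSS of 52 of the 63 genes in some library (82.5%, against 53% of all coding genes). In all 6 it was listed for 18 (28.6%, against 33.4% of the 10428 genes).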

How the data were processed

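MYC and POL2 ChIP-seq libraries of WT and SLK-KO PC-3 cells were used (3 per antibody and genotype, 12 in all). The control libraries (IgG, Input) did not enter. Per the submitters' processing notes, the tools included Trim Galore 0.6.7, BWA 0.7.18-r1243, Picard 3.2.0 and MACS3 3.0.1, run per the labels within nf-core/chipseq 2.1.0 on GRCh38. Each of the deposited lists came from a single library. The score that the authors deposited with each summit was read as −log10 of the caller's q-value, because the lowest scores, 1.3 to 1.43, lie near that of a q-value of 0.05. The control and the caller's options are not given in the sources used here. Scores were used to rank summits within a list and as a minimum. Peak widths and read counts were not used here, so depth is unknown and no intervals are given.

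A gene had a summit when one lay within 1 kb of the TSS of any of its protein-coding transcripts (GENCODE release 44), and the best-scored one was taken. Every one of the 35 genes was named, with ranks for those with MYC and for those whose POL2 rank ranges did not overlap. The genes, the comparison lists and the tests were chosen with earlier results of these data known. Genotypes were compared per gene by an exact two-sided permutation test of POL2 rank percentiles with Benjamini-Hochberg adjustment over all genes ranked; counts over the 35 genes have no test. The rank test was also run on simulated data. One group of marker genes is not reported here. Deviations of WT and SLK-KO libraries with the same number correlated by 0.0042, 0.00767 and -0.00966, and those with different numbers by -0.0329 to 0.029. The deviations thus showed no pairing by number. Alternatives were windows, score minimums, list length, TSS sets, E-box windows, leaving out each library, a replicate block and a shared promoter counted once; the TSS of every transcript was added after seeing the data. Python 3.11.15, pandas 2.3.3, scipy 1.17.1 and pysam 0.24.0 were used.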

Additional observations from a re-analysis of the deposited data

How the results depend on the processing

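In lists of equal length the difference in genes with MYC, SLK-KO minus WT, was 0.667 in place of 5. The genes with MYC in at least 1 library numbered 7 in place of 19. Those with POL2 in all 6 libraries numbered 8 in place of 15, which was 22.9%, against 24.2% of the 10428 genes. The mean E-box share in SLK-KO was 57.8% ± 36.7 in place of 30.7% ± 6.97 (SD, n = 3). In these cut lists PPAT and PAICS, which share the same 2 E-boxes, were the only ones of the 35 genes with an E-box. With all summits, the mean E-box share in SLK-KO was 22.7% with PPAT and PAICS counted once and 38.6% with the E-box sought within 250 bp. With a score of at least 10, 8 genes had MYC in at least 1 library and 5 had POL2 in all 6, and with a score of at least 5 the latter was 9. Leaving out WT replicate 2 gave 29 genes with POL2 in every remaining library and POL2 ranks nearer the top in SLK-KO for 11 and further down for 7, in place of 15, 3 and 3. Leaving out each library in turn, the difference ranged from 3.17 to 7.17 genes for MYC and from 1.17 to 9.67 for POL2 (6.33 with all libraries). Genes with MYC in at least 1 library ranged from 15 to 19 and those with POL2 in every library from 15 to 29. The mean E-box share ranged from 45% to 75% in WT (63.3% with all libraries) and from 26.8% to 33.5% in SLK-KO, and the genes nearer the top and further down from 3 to 11 and from 3 to 7. With the replicate block, in which same-numbered libraries were paired, the counts were again 3 and 3, where 8 sign flips allow no exact permutation p below 0.25. The difference in folate genes with MYC, SLK-KO minus WT, turned from 1.33 to -0.333 in lists of equal length, and that in POL2 at UCK2 and CMPK1 from 0.667 to -0.667. The POL2 rank differences of GART, DUT, SHMT2, RRM2, TYMS and MTHFD1L kept their sign with other windows, other TSS sets and each library left out. Ranges that did not overlap were left at GART, RRM2 and MTHFD1L among 9 ranked genes with a score of at least 5, at GART among 5 with a score of at least 10, where RRM2 was still ranked, and at GART, DUT and RRM2 among 8 in lists of equal length. Over all 2558 genes ranked with a score of at least 5, 15.9% were nearer the top and 15.9% further down. The shares were 17.6% and 16.5% of 1350 genes with a score of at least 10. In lists of equal length they were 16.2% and 15.7% of 2521 genes. The cause of these shifts was not tested.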
